A study of Rattus norvegicus albus with 14 samples.

Results

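Parvalbumin (Pvalb), calretinin (Calb2) and 8 members of the S100 family (S100a1, S100a4, S100a6, S100a8, S100a9, S100a10, S100a11 and S100b) were followed in cultured neonatal rat heart cells exposed to rosiglitazone. They are 10 of the 32545 genes counted, and each symbol matched 1 rat gene identifier. The genes were chosen by name, with earlier results of these data known, among them the higher Pvalb level at 24 h than at 0.5 h. That contrast is therefore given for Pvalb as a description, and the other values of the members are no independent evidence for the choice. All 10 genes passed the filter on low counts and were among the 15655 genes fitted.

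All 10 proteins belong to the EF-hand superfamily, in which a helix-loop-helix fold usually holds a calcium ion. Parvalbumin and calretinin are soluble buffers that take up calcium, and parvalbumin speeds relaxation in fast skeletal muscle. S100 proteins are small dimers that mostly act as sensors, changing shape with calcium and then binding other proteins such as annexins, myosin or ion channels. In working heart muscle S100a1 is the best-known member and acts on calcium release and uptake by the sarcoplasmic reticulum.

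The cells were ventricular myocytes of 1-day-old Sprague-Dawley rats, pooled after a pre-plating step against fibroblasts and kept in serum-free medium with insulin, transferrin and selenium. The DMSO group received 1% DMSO for 0.5 h and is a single library. Rosiglitazone, an antidiabetic agonist of the nuclear receptor PPARγ, was given at 10 µmol/L in the same 1% DMSO for 0.5, 24 or 48 h, with 2 libraries at each time. Vehicle at 24 and 48 h was not analysed here, and longer drug exposure therefore cannot be told apart from longer culture. The labels do not state whether the 2 libraries of a time were grown as separate cultures. The p-values accordingly reflect library-to-library spread alone, part or all of which may be technical.

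The 7 libraries held 10886559 to 28074620 counts, the shallowest being rosiglitazone 48 h replicate 2. Levels below are CPM, counts scaled to a common library size, after TMM scaling of the library sizes, and they are compared between libraries within a gene, not between genes, since no transcript length was used. Replicates differed more at the later times: 13.1% of tested genes differed by over 2-fold between the 2 libraries at 0.5 h, 36.0% at 24 h and 24.9% at 48 h. In bulk RNA, fewer cells of a type and less RNA per cell cannot be told apart. Of 11 cardiomyocyte markers matched none was at 0 in any library. Their summed level was 16500 to 16900 CPM at 0.5 h of rosiglitazone. It was 4130 to 13600 CPM at 24 h and 981 to 2380 CPM at 48 h. From 0.5 to 48 h, 9 of the 11 were past the threshold as lower, as were 4.62% of all tested genes. Of these 9, Ryr2 and Atp2a2 were followed over 18 other settings and passed in 17 and 12. For the rest this is not given here. Markers of fibroblasts, 9 matched, summed to 50300 to 51700, 32800 to 35100 and 17500 to 33700 CPM at the same times, with Thy1 at 0 in 1 library. That sum is mostly Col1a1 and Col3a1, and not all markers were lower at 48 h: Dcn rose by 2.85 ± 0.41 on the log2 scale from 0.5 to 48 h (edgeR, adjusted p of 0.015), and Pdgfra had 268 and 311 CPM at 0.5 h and 474 and 722 CPM at 48 h (adjusted p of 0.089). In the single DMSO library cardiomyocyte markers summed to 10200 CPM. At 0.5 h of rosiglitazone 10 of the 11 were higher than there without overlap (30.2% of tested genes). Macrophage markers summed to 1030 CPM with DMSO against 300 and 409 CPM at 0.5 h of rosiglitazone. All 12 of these were lower with rosiglitazone without overlap (31.8% of tested genes). None of these markers passed the threshold in that contrast.

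Over the course, 3 of the 10 members passed the threshold (adjusted p under 0.05) between 48 h and 0.5 h of rosiglitazone: Pvalb was higher, and S100a6 and S100a11 were lower. The background for that contrast was 6.59% of all tested genes, 1.97% higher and 4.62% lower. The Pvalb call there uses the 0.5 h libraries of the contrast that led to its listing, so it is no independent result. Between 24 h and 0.5 h, 0.0958% of all tested genes passed, 0.0511% higher and 0.0447% lower. Pvalb is among them, as its choice had fixed, and 0 of the other 9 members passed. Of these 9, S100a11 alone had an unadjusted p under 0.05 in edgeR's test, as 2454 genes (15.7%) did. It was also the only 1 of the 9 called by DESeq2, which called 1264 genes in this contrast. Between 48 h and 24 h, and between rosiglitazone and DMSO at 0.5 h, edgeR's quasi-likelihood test called 0 members and 0 genes of any kind. At an unadjusted p under 0.05 there were 1274 genes (8.14%) in the former of these contrasts, 5 of them members, and 95 genes (0.607%) in the latter, 0 of them members. DESeq2 called 510 and 2 genes in these contrasts, with 2 and 0 members among them.

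**Figure D1:**
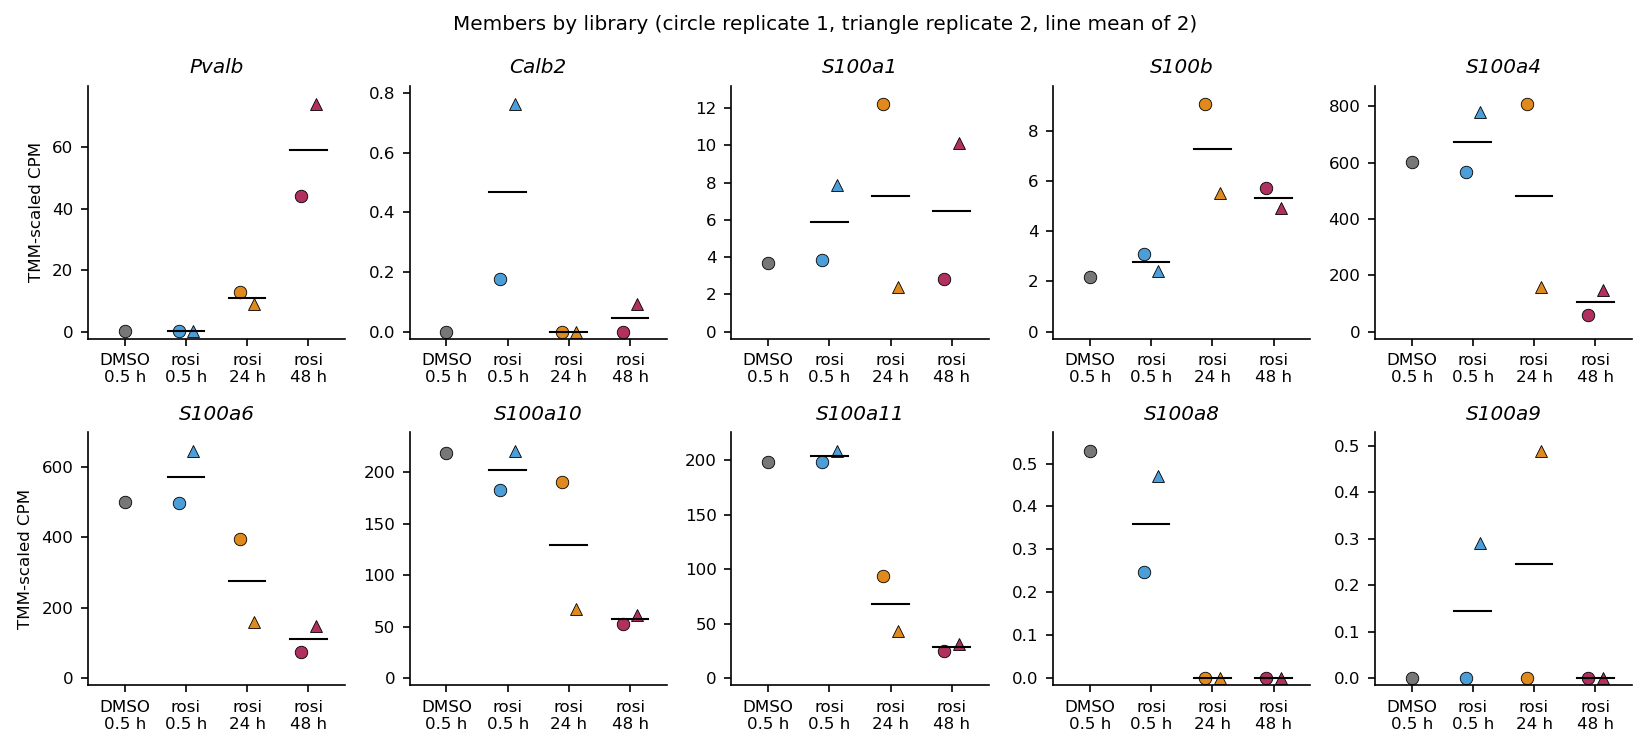
Level of each of the 10 members in TMM-scaled CPM (linear axis, a separate scale for each gene) in the 7 libraries, grouped by treatment and time. Circles are replicate 1, triangles replicate 2, and lines the mean of 2 libraries. Pvalb lies under 0.4 CPM in the 3 libraries of 0.5 h and at 44.1 and 73.9 CPM at 48 h, while S100a11 goes from 199 to 209 CPM down to 25.3 and 31.8 CPM.

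Among the calcium buffers, Pvalb changed from a trace to a clear signal. It had 0.318 CPM (9 counts) in the DMSO library, 0.282 and 0.254 CPM (8 and 7 counts) at 0.5 h of rosiglitazone, 13 and 8.89 CPM (297 and 236 counts) at 24 h, and 44.1 and 73.9 CPM (1204 and 795 counts) at 48 h. The 3 times did not overlap, and every library of a later time lay above every library of an earlier one. The same unbroken rise held for 4.18% of all tested genes.

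The mean Pvalb level was 0.268 ± 0.0194 CPM at 0.5 h, 10.9 ± 2.89 CPM at 24 h and 59.0 ± 21.1 CPM at 48 h (SD, n = 2 each). The fitted log2 fold change was 5.32 ± 0.51 (SE) from 0.5 to 24 h, a 40.0-fold higher level, in the contrast that led to its listing. From 0.5 to 48 h Pvalb rose by 7.75 ± 0.55 on the log2 scale, or 216-fold, with an adjusted p of 0.0049 in edgeR's quasi-likelihood test. That placed it at rank 3 by p among the 15655 genes, in a contrast that shares the 0.5 h libraries with the one before. From 24 to 48 h the log2 fold change was 2.43 ± 0.42 with an adjusted p of 0.27 in the same test. Over the 18 other settings tried it was 2.01 to 2.74 and passed the threshold in 3. At 0.5 h, rosiglitazone and DMSO differed by -0.24 ± 0.65 (adjusted p of 1 in that test).

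The absolute Pvalb signal at 0.5 h rests on 7 to 9 counts a library, which is above the 3 counts that a reading of 0 would allow. The size of the fold changes therefore depends on those few counts. The call at 48 h against 0.5 h passed under all 18 settings tried, with log2 fold changes of 7.34 to 8.04. The least certain of these had an adjusted p of 0.049.

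Pvalb is a marker of fast skeletal muscle and of a class of inhibitory neurons, so markers of both were read beside it. The summed level of 8 fast skeletal muscle markers was 173 CPM with DMSO, 105 and 125 CPM at 0.5 h of rosiglitazone, 200 and 78.6 CPM at 24 h, and 13.6 and 35.1 CPM at 48 h, and no marker was at 0 in any library. Ckm, the muscle creatine kinase that heart muscle also makes, gave most of that sum at 0.5 h, with 80.2 and 112 CPM, and had 5.01 and 11 CPM at 48 h. It was the 1 marker of the 8 past the threshold and fell by 3.61 ± 0.72 on the log2 scale from 0.5 to 48 h (edgeR, adjusted p of 0.033). At 24 h Myh2, Tnnt3, Tnni2 and Tnnc2 were higher than at 0.5 h of rosiglitazone without overlap, as Pvalb was, but below the DMSO library. Such an upward separation was seen for 21.2% of all tested genes. Actn3 went the other way without overlap, from 0.387 and 0.182 CPM at 0.5 h to 0.0437 and 0.0377 CPM at 24 h. Mylpf, Atp2a1 and Ckm overlapped between these times. Tnnc2, the fast-muscle troponin C, had 18.8 CPM with DMSO, 4.12 and 1.13 CPM at 0.5 h, 7.34 and 6.56 CPM at 24 h and 3.18 and 4.74 CPM at 48 h. The part of such RNA in the Pvalb level was not tested. The 10 neuronal markers summed to 103 and 115 CPM at 0.5 h, 118 and 102 CPM at 24 h and 70.0 and 100 CPM at 48 h, and 3 to 5 of them were at 0 in each library. The sum is nearly all Tubb3 and Uchl1. Of the inhibitory-neuron markers on the list, Gad1 was at 0 in both 48 h libraries, at least 1.87-fold lower than at 24 h. Against 0.5 h no fold could be given for Gad1, and Gad2 was at or near 0 in every group. Tubb3, a tubulin of neurons, had 47.0 and 49.3 CPM at 0.5 h and 5.42 and 5.86 CPM at 48 h and fell by 3.09 ± 0.53 (edgeR, adjusted p of 0.021), while Uchl1, a ubiquitin hydrolase, had 50.9 and 61.4 CPM at 0.5 h, 103 and 94.5 CPM at 24 h (adjusted p of 0.26) and 60.7 and 92.1 CPM at 48 h.

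The 6 genes whose profile over the 7 libraries lay nearest to that of Pvalb were Mt2A, Mt1, Star, Vat1l, AC128848.1 and Cyp4b1. Nearness is the root mean square difference of centred log2 CPM, over 10494 genes with a mean of at least 5 CPM, and is a description. Mt2A, a metallothionein that binds zinc and copper, was nearest with a difference of 0.63 and r = 0.984. It had 20.2 CPM with DMSO, 8.45 and 9.52 CPM at 0.5 h of rosiglitazone, 190 and 350 CPM at 24 h, and 992 and 1070 CPM at 48 h. Mt1, the other metallothionein, followed at 0.83. Star, which moves cholesterol into mitochondria for steroid synthesis, lay at 0.92, and Cyp4b1, a cytochrome P450, at 1.10. The replicate order was shared in part. At 24 h Pvalb and AC128848.1 were higher in replicate 1 and the other 5 genes in replicate 2, and at 48 h Star and Vat1l were higher in replicate 1 and the rest, Pvalb included, in replicate 2. The points share libraries and depth, and no p is given for likeness.

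**Figure D2:**
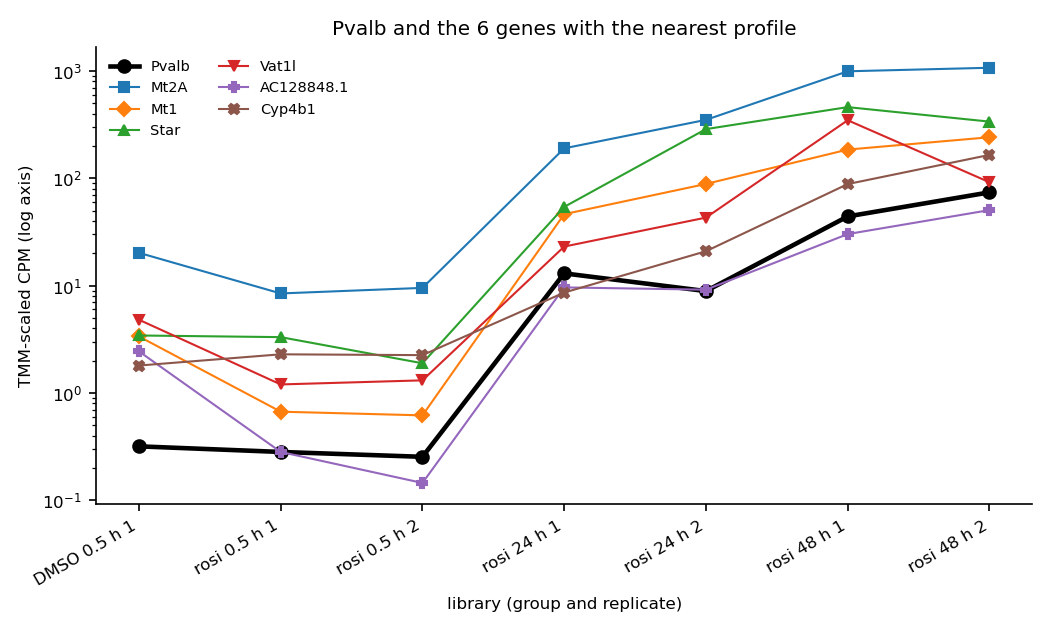
TMM-scaled CPM (log axis) of Pvalb and the 6 genes with the nearest profile, in each of the 7 libraries (horizontal axis). Lines only join the points of a gene. All 7 genes are lowest in libraries of 0.5 h and highest in libraries of 48 h, and Pvalb goes from 0.254 to 73.9 CPM.

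Calb2, which encodes the buffer calretinin of neurons and mesothelium, was at or near 0 throughout. It had 0 counts with DMSO, 5 and 21 counts (0.176 and 0.763 CPM) at 0.5 h of rosiglitazone, 0 counts in both 24 h libraries, and 0 and 1 counts at 48 h. The only libraries with more than 1 count were those of 0.5 h of rosiglitazone. Against a floor of 3 counts a library, the mean level at 0.5 h was at least 4.43-fold higher than with DMSO, and the level at 24 h at least 3.58-fold lower than at 0.5 h. Neither difference passed edgeR's quasi-likelihood test (adjusted p of 1 and 0.41), and replicates at 0.5 h differed by 4.33-fold. The 10 epicardial and mesothelial markers summed to 428 and 438 CPM at 0.5 h, 267 and 105 CPM at 24 h, and 91.6 and 132 CPM at 48 h, with at most 1 of them at 0 in a library. Their part in the Calb2 counts was not tested.

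Among the sensors of excitable cells and glia, S100a1 and S100b showed no change past the threshold. S100a1, whose protein binds the ryanodine receptor and the sarcoplasmic reticulum calcium pump, had 3.71 CPM with DMSO, 3.87 and 7.85 CPM at 0.5 h of rosiglitazone, 12.2 and 2.37 CPM at 24 h, and 2.85 and 10.1 CPM at 48 h. The groups overlapped at all 3 times, and the widest gap lay within a group, 5.14-fold between the 24 h libraries. Its log2 fold change from 0.5 to 48 h was 0.14 ± 0.93 (edgeR, adjusted p of 0.96), a difference smaller than the spread between replicates.

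Both targets named for S100a1 fell. Ryr2, the ryanodine receptor that releases calcium in heart muscle, had 410 and 322 CPM at 0.5 h, 76.0 and 63.1 CPM at 24 h and 9.96 and 23.5 CPM at 48 h, a log2 fold change of -4.46 ± 0.47 over the course (edgeR, adjusted p of 0.0072). Atp2a2, the calcium pump, had 2200 and 2750 CPM at 0.5 h and 616 and 715 CPM at 48 h, a change of -1.90 ± 0.30 (edgeR, adjusted p of 0.017). Neither gene overlapped between these times. The difference between S100a1 and its targets was not tested.

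S100b, the S100 protein of glial cells, had 2.16 CPM with DMSO, 3.10 and 2.43 CPM at 0.5 h of rosiglitazone, 9.05 and 5.50 CPM at 24 h, and 5.71 and 4.93 CPM at 48 h. All 4 later libraries lay above the 3 libraries of 0.5 h, and such a separation from 0.5 h of rosiglitazone was seen for 21.2% of tested genes at 24 h and 28.3% at 48 h. The log2 fold change was 1.39 ± 0.62 at 24 h (adjusted p of 0.33) and 0.94 ± 0.62 at 48 h (adjusted p of 0.42) against 0.5 h, neither past the threshold of edgeR's test. The 9 Schwann cell and glial markers summed to 24.3 and 25.9 CPM at 0.5 h, 14.3 and 21.5 CPM at 24 h, and 14.4 and 12.6 CPM at 48 h, lower at the times when S100b was higher. In the RefSeq table of the rat assembly GRCr8 the S100b span overlaps that of Dip2a. Dip2a had 40.2 and 34.8 CPM at 0.5 h, 24.4 and 40.6 CPM at 24 h and 31.6 and 40.6 CPM at 48 h. The strand setting of the counting is not given in the sources used here, so reads of the 2 genes may not be fully told apart.

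The sensors that bind the cytoskeleton, annexins and other targets, S100a4, S100a6, S100a10 and S100a11, were all lower at 48 h than at 0.5 h with no overlap between libraries. That pattern held for 34.4% of all tested genes. S100a11 and S100a6 passed the threshold, and S100a10 and S100a4 did not.

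S100a11, a partner of annexin A1 in membrane repair and endocytosis, had 199 CPM with DMSO, 199 and 209 CPM at 0.5 h of rosiglitazone, 93.9 and 43.1 CPM at 24 h, and 25.3 and 31.8 CPM at 48 h. The 3 times did not overlap, an unbroken fall that 5.58% of tested genes had. Its mean went from 204 ± 6.99 CPM at 0.5 h to 28.5 ± 4.63 CPM at 48 h (SD, n = 2 each), and it fell by 2.84 ± 0.41 on the log2 scale, a 7.17-fold lower level, with an adjusted p of 0.015 in edgeR's test. The change at 24 h was -1.58 ± 0.39 (adjusted p of 0.13). Over the 18 other settings tried it was -2.25 to -1.14 and passed the threshold in 4. The call at 48 h was lost without 0.5 h replicate 1 (adjusted p of 0.07) or 2 (0.057), and without 48 h replicate 1 (0.11) or 2 (0.062), while the log2 fold change stayed between -3.02 and -2.72.

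S100a6, also called calcyclin and a partner of the ubiquitin-ligase adaptor Cacybp, had 500 CPM with DMSO, 498 and 645 CPM at 0.5 h of rosiglitazone, 394 and 159 CPM at 24 h, and 74.8 and 149 CPM at 48 h. The times were again in falling order without overlap, although 24 h replicate 2 and 48 h replicate 2 lay close together. It fell by 2.35 ± 0.52 on the log2 scale from 0.5 to 48 h, a 5.11-fold lower level (edgeR, adjusted p of 0.043). The call was lost without the DMSO library (adjusted p of 0.056), without 0.5 h replicate 1 (0.15) or 2 (0.19), and without 48 h replicate 1 (0.21) or 2 (0.085), with log2 fold changes of -2.93 to -1.97. Cacybp itself had 161 and 171 CPM at 0.5 h and 298 and 259 CPM at 48 h, a log2 fold change of 0.75 ± 0.24 (adjusted p of 0.12).

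S100a4, which binds non-muscle myosin and is used as a fibroblast marker, had 601 CPM with DMSO, 566 and 782 CPM at 0.5 h of rosiglitazone, 808 and 159 CPM at 24 h, and 60.4 and 149 CPM at 48 h. The 24 h libraries stood 5.09-fold apart, replicate 1 above and replicate 2 below every library of 0.5 h. Its log2 fold change from 0.5 to 48 h was -2.69 ± 0.77 (edgeR, adjusted p of 0.085). Over the 18 other settings tried it was -3.48 to -2.21 and passed the threshold in 6.

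S100a10, which has lost calcium binding and forms a tetramer with annexin A2, had 219 CPM with DMSO, 183 and 221 CPM at 0.5 h of rosiglitazone, 191 and 67.6 CPM at 24 h, and 52.6 and 61.6 CPM at 48 h. Replicate 1 of 24 h lay among the libraries of 0.5 h, and replicate 2 near those of 48 h. Its log2 fold change from 0.5 to 48 h was -1.82 ± 0.47, a 3.54-fold lower level (edgeR, adjusted p of 0.064). Over the 18 other settings tried it was -1.98 to -1.68 and passed the threshold in 7.

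These 4 genes moved together over the 7 libraries. Their pairwise r of log2 CPM was 0.91 to 0.98, as a description over libraries that share the time course. Against Pvalb the r was -0.95 for S100a11, -0.86 for S100a6, -0.83 for S100a10 and -0.74 for S100a4. In both later groups all 4 were lower in the library with the lower summed cardiomyocyte markers, replicate 2 at 24 h and replicate 1 at 48 h. The summed fibroblast markers were lower in those libraries too, though not each gene: Col1a1 and Ddr2 were higher in 24 h replicate 2, and Dcn, Ddr2 and Thy1 in 48 h replicate 1. At 0.5 h of rosiglitazone the order was the other way. All 4 genes were lower in replicate 1, where cardiomyocyte markers summed to 16900 CPM against 16500 CPM in replicate 2. With DMSO these markers summed to 10200 CPM, while S100a4, S100a6, S100a10 and S100a11 had 601, 500, 219 and 199 CPM. Endothelial markers were also lower at 48 h than at 0.5 h, 9 of 9 without overlap and 4 of them called. They summed to 224 and 248 CPM at 0.5 h, 115 and 81.0 CPM at 24 h and 56.3 and 57.5 CPM at 48 h. Vwf was at 0 in 24 h replicate 2. In 24 h replicate 1 the endothelial sum was below both 0.5 h libraries, as were S100a6 and S100a11 but not S100a4 and S100a10. Of 10 epicardial and mesothelial markers 9 were lower without overlap, 4 of them called, and of 12 macrophage markers 7 were, 3 of them called, against 34.4% of tested genes lower without overlap and 4.62% called lower. The macrophage markers summed to 300 and 409 CPM at 0.5 h, 481 and 171 CPM at 24 h and 209 and 393 CPM at 48 h, with 1 and 2 of them at 0 in the 24 h libraries. How the endothelial, epicardial and macrophage marker calls depend on the settings is not given here. The part of these cell types in the fall of the 4 genes was not tested.

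**Figure D3:**
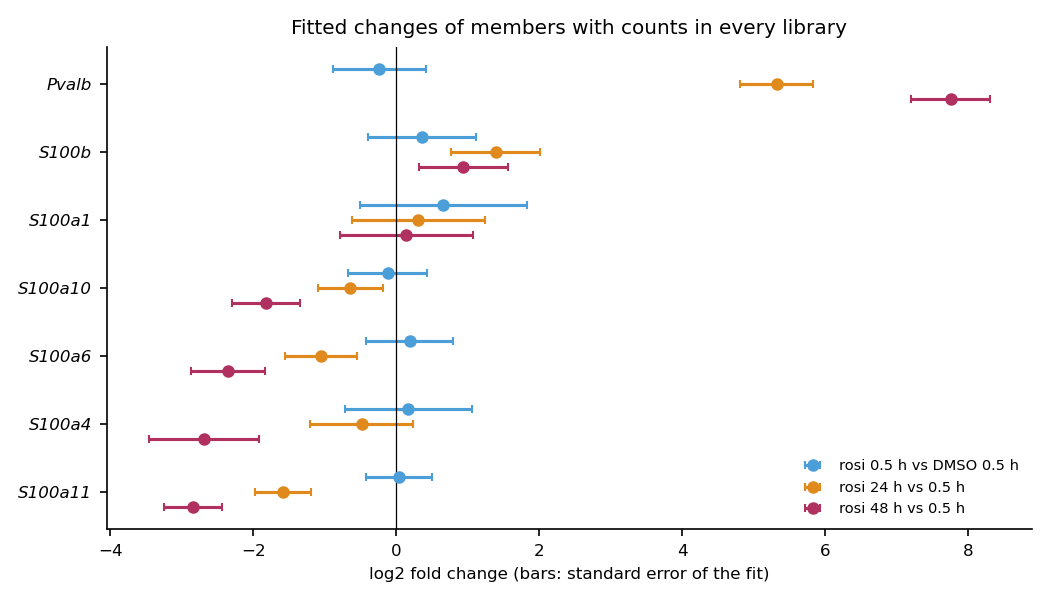
Fitted log2 fold changes (horizontal axis) of the 7 members with counts in every library, for rosiglitazone against DMSO at 0.5 h and for 24 h and 48 h against 0.5 h of rosiglitazone. Bars are the standard error of the fit. Pvalb stands at 5.32 and 7.75 at the later times, S100a11 at -1.58 and -2.84, and S100a1 lies within its standard error of 0 throughout.

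The 2 genes nearest in profile to each sensor were read in the same way, leaving out the 10 members. For S100a11 they were Tgfb1i1, a focal adhesion adaptor, at a difference of 0.10, and Ska3, of the kinetochore, at 0.16. Those of S100a6 were Dkk3, a secreted protein of the Dickkopf family, at 0.12 and Pfkm, the muscle phosphofructokinase, at 0.16. Both for S100a4 lay at 0.15, Apobec2, a deaminase family member of muscle, and Tmem44. S100a10 had Ywhah, an adaptor that binds phosphorylated proteins, at 0.10 and Kdelr3, a receptor that returns proteins to the endoplasmic reticulum, at 0.15. S100a1 was nearest to Ccdc28b at 0.15, and S100b to the RNA-binding protein gene Larp1b at 0.14.

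S100a10 was lower at 48 h than at 0.5 h, while its partner gene Anxa2 overlapped, and the difference was not tested. Anxa2 had 790 and 932 CPM at 0.5 h of rosiglitazone, 836 and 598 CPM at 24 h and 867 and 737 CPM at 48 h, overlapping at all times, with a log2 fold change over the course of -0.10 ± 0.30 (edgeR, adjusted p of 0.88). The ratio of S100a10 to Anxa2 counts was 0.256 with DMSO, 0.232 and 0.237 at 0.5 h, 0.229 and 0.113 at 24 h, and 0.0607 and 0.0835 at 48 h. Each 48 h library was below every earlier one. Between the neighbours S100a10 and S100a11 the ratio of counts was 1.10 with DMSO, 0.917 and 1.06 at 0.5 h, 2.03 and 1.57 at 24 h, and 2.08 and 1.94 at 48 h. All 4 later libraries lay above the 3 of 0.5 h. With 2 libraries a time, an exact 2-sided permutation test on a ratio cannot give a p below 0.333, so no test is given.

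**Figure D4:**
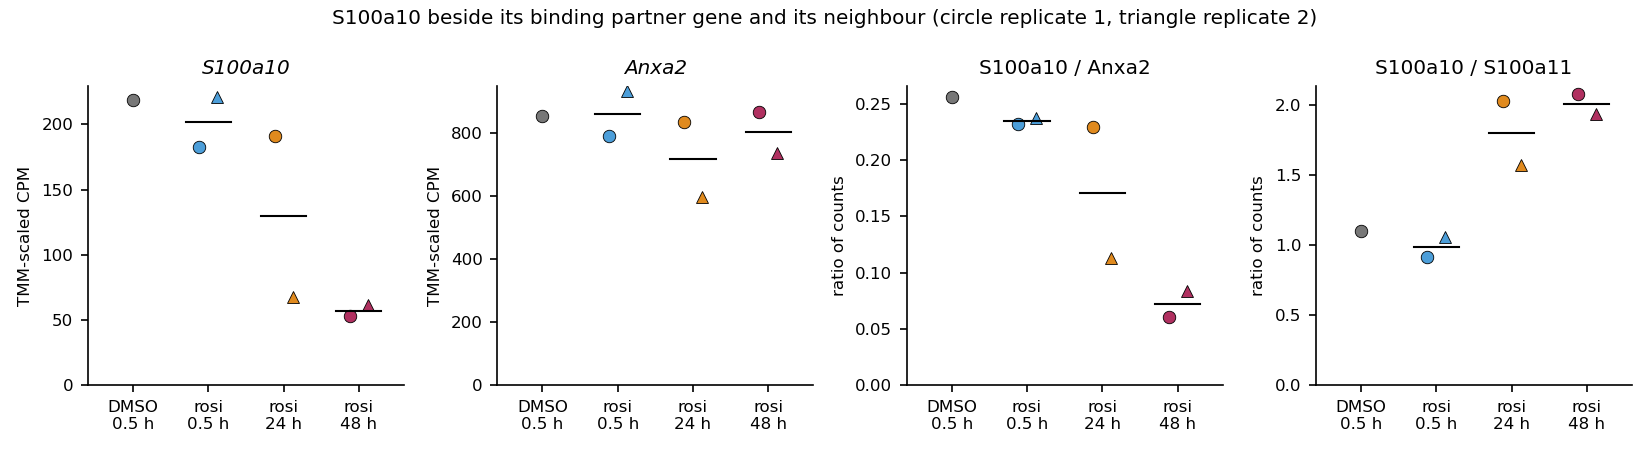
From left to right, S100a10 and Anxa2 in TMM-scaled CPM, and the ratios of S100a10 to Anxa2 counts and of S100a10 to S100a11 counts, per library (axes start at 0). Circles are replicate 1, triangles replicate 2, lines means of 2 libraries. The ratio to Anxa2 is 0.0607 and 0.0835 at 48 h against 0.232 and 0.237 at 0.5 h, while the ratio to S100a11 is 2.08 and 1.94 against 0.917 and 1.06.

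S100a8 and S100a9, the subunits of calprotectin that neutrophils and monocytes release, were at the limit of detection. S100a8 had 15 counts with DMSO, 7 and 13 counts at 0.5 h of rosiglitazone, and 0 counts in all 4 later libraries. S100a9 had 8 counts in 0.5 h replicate 2, 13 counts in 24 h replicate 2, and 0 in the other 5 libraries. A count of 0 allows up to 0.106 to 0.279 CPM, depending on the library.

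Against that floor the S100a8 level was at least 2.74-fold lower at 24 h and at least 1.29-fold lower at 48 h than at 0.5 h, and neither passed edgeR's test (adjusted p of 0.42 at 24 h). The counts of the pair did not go together, since S100a9 was at 0 in 2 of the 3 libraries with S100a8. Of 11 neutrophil and monocyte markers, 5 to 8 were at 0 in each library, and Elane, neutrophil elastase, was at 0 in all 7. The summed level, 75.0 and 91.3 CPM at 0.5 h, 222 and 118 CPM at 24 h and 1550 and 393 CPM at 48 h, was nearly all Lcn2, the iron-carrier-binding lipocalin, at 71.6 and 86.5 CPM, 218 and 115 CPM, and 1540 and 389 CPM. Lcn2 rose by 3.61 ± 0.67 on the log2 scale from 0.5 to 48 h (edgeR, adjusted p of 0.027). It was the 1 marker called of the 5 tested, and how its call depends on the settings is not given here. Tlr4, the receptor of S100a8 and S100a9, had 16.5 and 22.4 CPM at 0.5 h and 9.26 and 7.72 CPM at 48 h, a log2 fold change of -1.19 ± 0.40 (adjusted p of 0.12).

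The S100 genes were also read by position. In the RefSeq table of GRCr8, S100 genes of chromosome 2 run in the order S100a1, S100a13, S100a14, S100a16, S100a3, S100a4, S100a5, S100a6, S100a7a, S100a8 and S100a9, with S100a7l2 after 1 other coding gene, and after 56 more S100a11 and S100a10 side by side. S100b lies apart on chromosome 20, Pvalb on 7 and Calb2 on 19. Of the genes on chromosome 2 with counts in every library, S100a4, S100a6, S100a11 and S100a10 had log2 fold changes of -2.84 to -1.82 from 0.5 to 48 h. S100a1, S100a13 and S100a16, at the other end of the row, lay between -0.23 and 0.14. S100a16 had 83.3 and 125 CPM at 0.5 h, 123 and 61.7 CPM at 24 h and 61.4 and 136 CPM at 48 h, overlapping throughout (edgeR, adjusted p of 0.96). Protein identity to the human counterpart, in the deposited annotation, was 51.1% for S100a9 and 62.9% for S100a8, against 86.7 to 98.9% for the other 8 members.

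**Figure D5:**
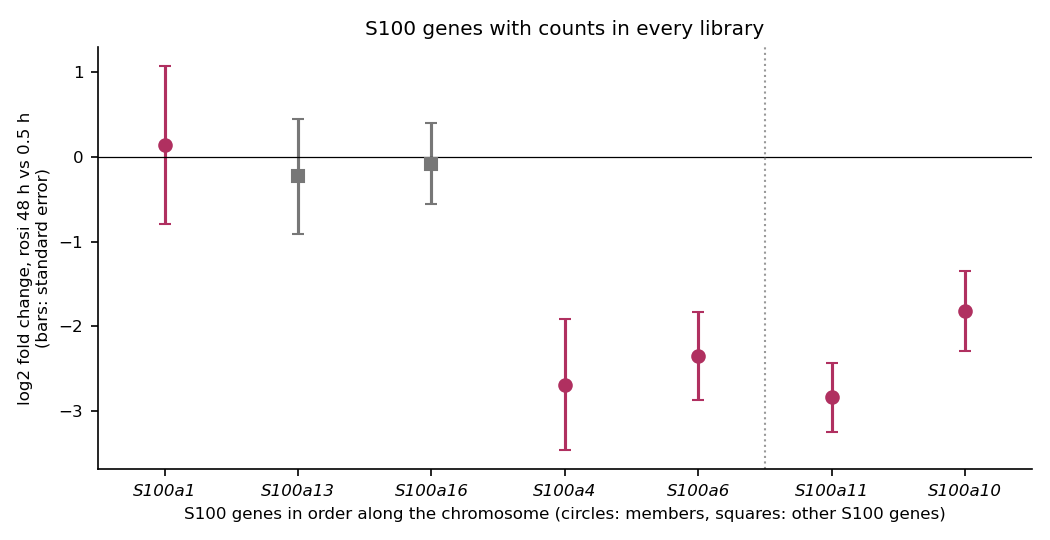
Log2 fold change from 0.5 to 48 h of rosiglitazone (vertical axis, bars are the standard error of the fit) of the S100 genes on chromosome 2 with counts in every library, in their order along the chromosome and not to scale. Circles are members, squares other S100 genes, and the dotted line marks the gap with the 56 coding genes before S100a11. The first 3 genes lie between -0.23 and 0.14 and the last 4 between -2.84 and -1.82.

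Set beside related genes, the course was mixed. A list of 18 other S100 genes and relatives had 13 matched and 5 tested: S100a3, S100a13 and S100a16, Tchh, which carries an S100-like domain, and S100pbp, which binds an S100 protein and is not of the family. None of the 5 passed edgeR's threshold from 0.5 to 48 h, and 0 had an unadjusted p under 0.05, with a median log2 fold change of -0.08 against -0.07 over all tested genes. Of 28 other EF-hand genes tested, 1 rose and 3 fell, where 1.97% of all tested genes were called higher and 4.62% lower, with a median of -0.48, or -0.22 with genes at 0 set to their bound. Pdcd6, which helps in membrane repair and vesicle budding, rose by 1.08 ± 0.25 (edgeR, adjusted p of 0.048), from 73.7 and 82.0 CPM at 0.5 h to 187 and 155 CPM at 24 h and 166 and 163 CPM at 48 h. Tnnc1, the troponin C of heart muscle, fell by 4.24 ± 0.86 (adjusted p of 0.034) and Capn2, the large subunit of a calcium-activated protease, fell by 1.36 ± 0.31 (adjusted p of 0.047). Vsnl1, a neuronal-type calcium sensor, fell to 0 counts at 48 h, at least 18.6-fold lower (adjusted p of 0.048).

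Of 11 annexins tested, 2 fell and 0 were called higher, with a median log2 fold change of -0.85. Anxa1, the partner of S100a11, fell by 2.02 ± 0.42 (edgeR, adjusted p of 0.036), from 487 and 506 CPM at 0.5 h to 113 and 132 CPM at 48 h. Anxa3 fell by 3.08 ± 0.58 (edgeR, adjusted p of 0.027). Of 21 receptors and binding partners tested, 5 fell and 0 were called higher, against 4.62% and 1.97% of all tested genes, with a median of -0.70, and 6 of the 21 had a positive log2 fold change. Besides Ryr2 and Atp2a2 these were Ahnak, a giant scaffold that binds S100a10 with annexin A2, Ezr, a linker of membrane and actin, and Plat, the tissue plasminogen activator that S100a10 helps to bind at the cell surface. Ahnak had 1780 and 1220 CPM at 0.5 h, 441 and 672 CPM at 24 h and 226 and 342 CPM at 48 h, a log2 fold change of -2.40 ± 0.39 (edgeR, adjusted p of 0.018). Counting Ckm, Dcn and Tubb3 but not Lcn2, 14 listed genes are named here as past the threshold from 0.5 to 48 h. Every one of these 14 calls was lost in at least 1 fit without a library. Without 0.5 h replicate 1 or replicate 2 in turn, 13 of the 14 were lost (adjusted p of 0.10 to 0.41 and 0.058 to 0.28), Ryr2 being the exception. Without 48 h replicate 1 all 14 were lost (0.059 to 0.20), 10 without 48 h replicate 2 (0.06 to 0.14), and Vsnl1 and Capn2 without the DMSO library (0.055 to 0.059). No direction changed in these fits. With no filter on low counts Tnnc1 (adjusted p of 0.092) and Ckm (0.059) were lost, and Pdcd6 was lost with upper-quartile scaling (0.05) and without robust dispersions (0.052). None of the annexins, partners and other EF-hand or S100 genes passed the threshold between 24 h and 0.5 h or between 48 h and 24 h.

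For the 10 members together the median log2 fold change was 0.18 for rosiglitazone against DMSO at 0.5 h, -0.56 from 0.5 to 24 h, -0.81 from 24 to 48 h and -2.52 from 0.5 to 48 h. With genes at 0 in a group set to their bound the last pair was -0.31 and -1.10. Over all tested genes the medians were 0.01, -0.03, -0.01 and -0.07. Libraries of the later group all lay above those of 0.5 h of rosiglitazone for 2 members at 24 h (21.2% of tested genes) and 2 at 48 h (28.3%), and all below for 4 members at 24 h (28.9%) and 6 at 48 h (34.4%). Calb2 and S100a8, at or near 0 counts in the later libraries, are among those 4 and those 6. From 24 to 48 h such a separation was upward for 1 member (14.5% of tested genes) and downward for 4 (14.6%). Against the single DMSO library it was upward for 4 members (30.2%), Calb2 among them, and downward for 2 (31.8%), S100a8 among them. At 0.5 h all members but Calb2, S100a8 and S100a9 differed between rosiglitazone and DMSO by log2 fold changes of -0.24 to 0.66, each with an adjusted p of 1 in edgeR's test.

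Of the 10 members, 6 have in the authors' deposited table an adjusted p under 0.05 from 0.5 to 24 h, with log2 fold changes of 4.86 for Pvalb, 1.34 for S100b, -0.974 for S100a6, -1.50 for S100a11, -2.12 for S100a8 and -2.19 for Calb2. From 24 to 48 h the authors' deposited table has 5 such members, Pvalb at 2.27, S100a6 at -1.14, S100a10 at -1.04, S100a11 at -1.16 and S100a4 at -1.67. That table calls 39.0% of its genes in the former contrast and 16.5% in the latter. For rosiglitazone against DMSO at 0.5 h it calls 11% of its genes and 0 members. The deposited tables hold the 2 splits of each library as separate columns. Whether the authors' test took splits as replicates is not given in the sources used here. With splits as replicates, edgeR called 5629 of 14481 genes from 0.5 to 24 h. Calb2 and S100a8 had at most 21 counts in a library.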

How the data were processed

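The samples are 7 RNA libraries, each deposited as 2 splits. The 2 splits of each library agreed within sampling noise (genes with at least 20 counts, chi-square divided by its degrees of freedom 0.963 to 1.015) and were summed, so each library counts as 1 replicate. Per the submitters' processing notes, FastQC 0.11.5, cutadapt 1.11, HTSeq and DESeq2 were used with the builds Rnor_6.0 and hg19, and all identifiers are rat. The labels' protocols name a directional library kit. Not given in the sources used here: the aligner, the strand setting and the annotation release.

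Whole-number counts of reads for each gene, not normalized, make up the deposited tables. Per the file headers they also hold the authors' log2 fold changes and p-values with adjusted values, and the percent identity of each human homolog. Each of the 3 tables has 33005 entries for 32545 genes, 460 entries repeat a gene, 24 genes have no symbol, and the 4 libraries found in 2 tables had 0 unequal values. Columns of per-sample values not used numbered 0.

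Counts were fitted with edgeR 4.0.16 in R 4.3.3 (TMM scaling, filterByExpr, robust dispersions for the quasi-likelihood test, 4 groups in 1 fit, 3 residual and a median of 4.46 prior degrees of freedom, common biological coefficient of variation 0.514). Benjamini-Hochberg adjustment ran over the 15655 genes fitted, and an adjusted p under 0.05 is the threshold. Standard errors are the log2 fold change divided by the square root of the F statistic. CPM are TMM-scaled, and log2 CPM used a prior count of 2. For a single gene at 0 in a group, a bound against 3 counts a library is given in place of the fitted fold. Medians over lists use the fitted folds of such genes, except where genes at 0 are said to be set to their bound. Bounds and floors reflect counting error alone: reads carried no molecular identifiers, so they are not independent molecules. The DMSO library is assumed to vary like the other groups. The fit was tested on simulated data.

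The members, the lists of related genes and the markers were chosen with earlier results of these data known. Genes outside the members are named from those lists, or as the 6 genes nearest to Pvalb and the 2 nearest to each other member with a mean of at least 1 CPM, among 10494 genes with a mean of at least 5 CPM. Some listed symbols were not matched and were not used here. Gene order was read from RefSeq's GRCr8 table, which is another build than that of the files, so no coordinates are given. Alternatives were RLE and upper-quartile scaling, DESeq2 1.42.0, no filter, a mean of at least 5 CPM, no robust dispersion, splits as replicates, a replicate block, only the 2 groups compared, thresholds of 0.10 and 0.01, and each library left out.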

Additional observations from a re-analysis of the deposited data

How the results depend on the processing

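Members past the threshold numbered 0 for rosiglitazone against DMSO at 0.5 h and 1 from 0.5 to 24 h. They numbered 0 from 24 to 48 h and 3 from 0.5 to 48 h. The 1 at 24 h is Pvalb, as the choice of members had fixed, and Pvalb is also among the 3. These counts moved with the setting while no called member reversed. In that order of contrasts DESeq2 gave 0, 2, 2 and 5 members, no filter gave 0, 2, 0 and 4, splits as replicates gave 0, 5, 5 and 6, and only the 2 groups compared gave 0, 0, 0 and 5. A threshold of 0.10 gave 0, 1, 0 and 5, and one of 0.01 gave 0, 0, 0 and 1. Genes of any kind called numbered 2, 1264, 510 and 2591 with DESeq2. With splits as replicates they numbered 78, 5629, 2890 and 6943 of 14481. From 0.5 to 48 h, 2733 genes were called with only the 2 groups compared, 1936 at a threshold of 0.10 and 53 at 0.01. Leaving out each library in turn gave 0 to 0, 0 to 3, 0 to 4 and 1 to 5 members. Over all genes the calls ranged over these settings from 0 to 174, 0 to 5629, 0 to 2890 and 12 to 6943, against 0, 15, 0 and 1031. Splits share a library, so that setting treats technical repeats as replicates.

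Pvalb at 24 h against 0.5 h was past the threshold in 11 of 18 settings (log2 fold change 5.02 to 5.55). It was lost without 0.5 h replicate 1 (adjusted p of 0.32 in edgeR's test) or 2 (0.22), without 48 h replicate 1 (0.072) or 2 (0.073), with only the 2 groups (0.13), at a threshold of 0.01, and under the replicate block (0.074). S100a6 from 0.5 to 48 h passed in 11 of 18 settings and was also lost under the replicate block (0.093), and S100a11 passed in 13 of 18. Of the same 14 listed genes, Lcn2 not counted, that were called from 0.5 to 48 h, 9 were lost under the replicate block (adjusted p of 0.056 to 0.13). With the replicate number as a block, 0, 0, 0 and 2 members and 0, 1, 0 and 407 genes passed. Replicates with the same number did not deviate together (correlations of -0.08, 0.06 and -0.12), so the samples share only a number. The median log2 fold change of all genes from 0.5 to 48 h was -0.20 without 48 h replicate 1. For Calb2, S100a8 and S100a9 depth is the limit, with at most 21 counts in a library.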
